A study of Homo sapiens with 6 samples.

Results

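The genes described here are 10 targets of the transcription factor NF-kB that were followed in HCT116 cells with and without acquired drug resistance. They are RELB, NFKBIA, TNFAIP3, BIRC3, CXCL8, CXCL1, CXCL2, LCN2, ICAM1 and SOD2, taken by symbol from 19942 symbols in the expression tables. They were chosen by their measured levels, which differ in direction between the lines and under EHMT2 siRNA. The line and EHMT2 siRNA values given below are therefore the values that selected them, given as a description with no test.

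HCT116 is an established human colorectal carcinoma cell line, and messenger RNA was measured in 6 libraries of it. The groups were resistant cells with EHMT2 siRNA, resistant cells with control siRNA, resistant untransfected cells, parental cells with EHMT2 siRNA, parental cells with control siRNA and parental untransfected cells, where parental cells carry the label wild-type. Resistance was to 5-FU (5-fluorouracil), a pyrimidine analogue that blocks thymidylate synthase and enters RNA and DNA, and EHMT2 encodes the histone H3K9 methyltransferase G9a. Each group held 1 library, which leaves every pair of libraries without a replicate check. The labels do not say whether the resistant cells are 1 clone or a pool, or which siRNA sequences were used. Levels are in FPKM, a read density corrected for transcript length and library size, and a ratio here is the log2 quotient after 1 FPKM was added to both levels, which understates the change of low genes. A gene was counted as 2-fold apart in a pair when it passed that fold on this scale and had an FPKM of 1 or more in either library. A listed 0 was entered as 0 in counts and medians, although no single ratio is given against it.

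The targeted gene was lower in both lines: EHMT2 had an FPKM of 3.8 in resistant cells with EHMT2 siRNA, 19.5 with control siRNA and 27.3 untransfected, and of 8.58, 31.7 and 19.8 in the parental cells in the same order. The libraries summed to 360695 to 446143 FPKM and held 11240 to 11722 genes at an FPKM of 1 or more, and the number of reads behind them is unknown. Of 10 epithelial markers, 8 were at 1 FPKM or more in every library, with KRT8, KRT18 and KRT19 the highest, while CDX1 and VIL1 were listed at 0 throughout. Of 10 leukocyte markers, at most 1 reached 1 FPKM in a library, their sum was 1.28 to 5.64 FPKM, and PTPRC and CD3E were listed at 0 in all 6. The macrophage marker CD68, which shares 85.8% of its exonic bases with other entries, was higher in all resistant libraries, at 1.47, 4.99 and 3.19 FPKM with EHMT2 siRNA, with control siRNA and untransfected, against 0.372, 0.878 and 1.28 FPKM in parental cells. It moves with the line comparisons below, and its part in them was not tested. The 10 fibroblast and endothelial markers summed to 3.35 to 9.79 FPKM, with COL3A1 and PECAM1 listed at 0. The globin genes HBA1, HBA2 and HBB, looked at after their values were seen, stood at 16.8 to 32.2 FPKM in the 4 siRNA libraries, against 0 to 1.10 FPKM in both untransfected libraries. This difference moves with every comparison of siRNA and untransfected cells below, and its part in them was not tested.

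NF-kB is a family of dimeric transcription factors held in the cytoplasm by inhibitors of the I-kappa-B family. Signals from cytokine, death and pattern recognition receptors activate a kinase complex that marks the inhibitor for degradation, and the freed dimer enters the nucleus and binds short kB elements in promoters. Several of its targets act back on the pathway, NFKBIA and TNFAIP3 as brakes, while others encode chemokines, adhesion molecules and survival factors. In colonic epithelium the pathway is best known for the response to microbes and inflammatory cytokines.

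The promoters of the members are shown first, since the members were listed as NF-kB targets and NF-kB binds kB elements. RefSeq windows of 250 bases before to 50 bases after the start (GRCh38.p14) were matched for 9 of the 10 genes. The following stretches are 5′ to 3′ on the strand of the gene, run from position -150 to position -41 relative to its start, and show in capitals the matches to a degenerate kB consensus or to the letters shared by all 3 chemokines.

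CXCL1, chr4:73869243-73869352, plus strand: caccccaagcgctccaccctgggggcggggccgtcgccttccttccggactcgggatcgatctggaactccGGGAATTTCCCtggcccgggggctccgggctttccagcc
CXCL2, chr4:74099236-74099345, minus strand: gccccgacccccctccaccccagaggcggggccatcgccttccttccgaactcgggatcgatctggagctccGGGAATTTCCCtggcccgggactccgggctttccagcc
CXCL8, chr4:73740419-73740528, plus strand: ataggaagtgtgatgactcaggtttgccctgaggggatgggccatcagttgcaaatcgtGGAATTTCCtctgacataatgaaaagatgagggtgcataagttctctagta
NFKBIA, chr14:35404790-35404899, minus strand: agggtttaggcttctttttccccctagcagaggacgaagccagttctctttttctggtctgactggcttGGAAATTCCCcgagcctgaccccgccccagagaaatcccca
TNFAIP3, chr6:137867109-137867218, plus strand: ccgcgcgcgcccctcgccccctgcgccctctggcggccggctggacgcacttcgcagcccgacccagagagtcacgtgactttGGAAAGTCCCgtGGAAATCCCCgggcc

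In ICAM1, LCN2 and BIRC3 the matches lay further upstream, and these stretches of 110 bases begin at position -220, with the same use of capitals.

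ICAM1, chr19:10270900-10271009, plus strand: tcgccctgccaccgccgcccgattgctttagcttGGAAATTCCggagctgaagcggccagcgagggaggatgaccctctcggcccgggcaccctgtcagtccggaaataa
LCN2, chr9:128149233-128149342, plus strand: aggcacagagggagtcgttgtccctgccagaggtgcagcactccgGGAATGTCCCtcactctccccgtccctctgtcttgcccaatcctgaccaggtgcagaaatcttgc
BIRC3, chr11:102317264-102317373, plus strand: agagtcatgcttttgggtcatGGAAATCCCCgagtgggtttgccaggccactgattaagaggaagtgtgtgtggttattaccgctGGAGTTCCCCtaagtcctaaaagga

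The kB consensus, searched on both strands, was found in the windows of LCN2, TNFAIP3, BIRC3, CXCL1, CXCL2 and NFKBIA, which is 6 of 9 genes. It was found in 11.3% of all 35116 RefSeq windows of this length, and in a window of 13.3% of their 27305 symbols. TNFAIP3 and BIRC3 each held 2 separate matches. The longest run shared by the windows of CXCL1, CXCL2 and CXCL8 was GGAATTTCC, which reads GGAAATTCC on the other strand and overlaps the consensus in CXCL1, CXCL2 and NFKBIA. This run was chosen after the windows were read, and CXCL1, CXCL2 and CXCL8 hold it by construction. Beyond them it was present in ICAM1 and NFKBIA. It was present in 0.461% of all windows and in a window of 0.56% of symbols, given for scale only. A looser form, which asks for 3 G, any 5 bases and 2 C on either strand, was found in all 9 members. It was also found in 58.7% of all windows and in a window of 61.7% of symbols. The CXCL8 and ICAM1 windows had no match to the full consensus, and neither did any of the 4 windows of SOD2.

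The matches clustered at similar distances in several genes. They began at position -79 in CXCL1, -78 in CXCL2, -91 in CXCL8 and -81 in NFKBIA, and at -67 and -55 in TNFAIP3. They began further upstream, at -186 in ICAM1, -175 in LCN2, and -199 and -135 in BIRC3. The whole windows of CXCL1 and CXCL2 were 69.8% identical, while that of CXCL8 was 43.1% identical to CXCL1 and 43.8% to CXCL2. These letter matches describe sequence and do not show that a factor is bound.

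**Figure D1:**
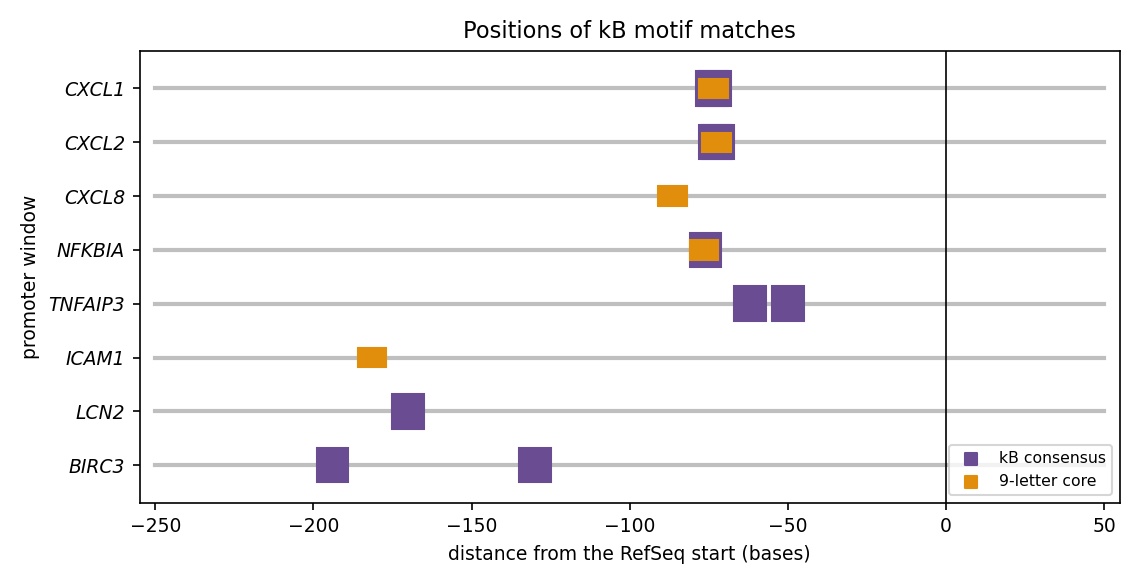
Position of kB motif matches in the RefSeq promoter windows of the 8 members with a match to the consensus or the shared run, with the distance from the gene start in bases on the horizontal axis and 1 row per window. The matches of CXCL1, CXCL2, CXCL8 and NFKBIA begin between -91 and -78, and those of ICAM1, LCN2 and BIRC3 lie further upstream.

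Among the members with a role inside the pathway, the transcript of RELB, an NF-kB subunit of the non-canonical branch, was highest in the resistant siRNA libraries. RELB (ENSG00000104856, chromosome 19, 45001430 to 45038198, plus strand, GENCODE 29 on GRCh38) had 7.16 FPKM in resistant cells with EHMT2 siRNA, 9.24 with control siRNA and 4.27 untransfected, against 3.98, 4.06 and 4.80 FPKM in the parental cells. As deposited, only the untransfected resistant library lay within the parental range, and with values rescaled to the same sum no resistant library did. In such bulk samples fewer cells with the transcript and less of it per cell cannot be told apart. The log2 ratio of resistant over parental cells was 0.71 for EHMT2 siRNA and 1.02 for control siRNA. It was -0.14 in untransfected cells, where it became 0.07 with the values rescaled to the same sum in every library. EHMT2 siRNA over control siRNA gave -0.33 in resistant cells and -0.02 in parental cells, and the second of these became 0.09 after that rescaling.

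NFKBIA encodes I-kappa-B alpha, the inhibitor that NF-kB itself induces. Its transcript (ENSG00000100906, chromosome 14, 35401511 to 35404749, minus strand) had 30.5, 27.6 and 22.2 FPKM in resistant cells with EHMT2 siRNA, with control siRNA and untransfected, against 13.9, 16.5 and 19.9 FPKM in parental cells in that order. All 3 resistant libraries lay above all 3 parental ones, and the gap narrowed in untransfected cells. The log2 ratio of the lines was 1.08 with EHMT2 siRNA, 0.71 with control siRNA and 0.15 untransfected. With EHMT2 siRNA over control siRNA the ratio was 0.14 in resistant cells and -0.23 in parental cells, opposite in sign but both small.

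TNFAIP3 encodes A20, a ubiquitin-editing enzyme that shuts NF-kB signalling down. Its transcript (ENSG00000118503, chromosome 6, 137867188 to 137883312, plus strand) was at 3.12, 2.26 and 2.36 FPKM in the resistant libraries with EHMT2 siRNA, with control siRNA and untransfected, against 1.02, 1.01 and 0.858 FPKM in the parental ones. The lines did not overlap, and the quotient of plain FPKM was 3.05 with EHMT2 siRNA, 2.23 with control siRNA and 2.75 untransfected. The EHMT2 siRNA log2 ratio was 0.34 in resistant cells and 0.01 in parental cells, and the parental one turned to -0.09 when ratios were centred on the median of all genes and to -0.23 under quantile normalisation. Genes with all resistant libraries above all parental ones made up 2.79% of the 12310 genes at 1 FPKM or more in any library, and TNFAIP3 and NFKBIA were the 2 members among them.

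BIRC3 encodes cIAP2, a ubiquitin ligase that holds off cell death at TNF receptors. Its transcript (ENSG00000023445, chromosome 11, 102317450 to 102339403, plus strand) was at 5.53, 4.31 and 1.78 FPKM in resistant cells with EHMT2 siRNA, with control siRNA and untransfected, against 2.5, 1.88 and 1.12 FPKM in parental cells. The order of the 3 treatments was the same in both lines, and each resistant library was above its parental partner. The line log2 ratio was 0.90, 0.88 and 0.39 for these treatments in turn. EHMT2 siRNA over control siRNA gave 0.30 in resistant cells and 0.28 in parental cells.

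**Figure D2:**
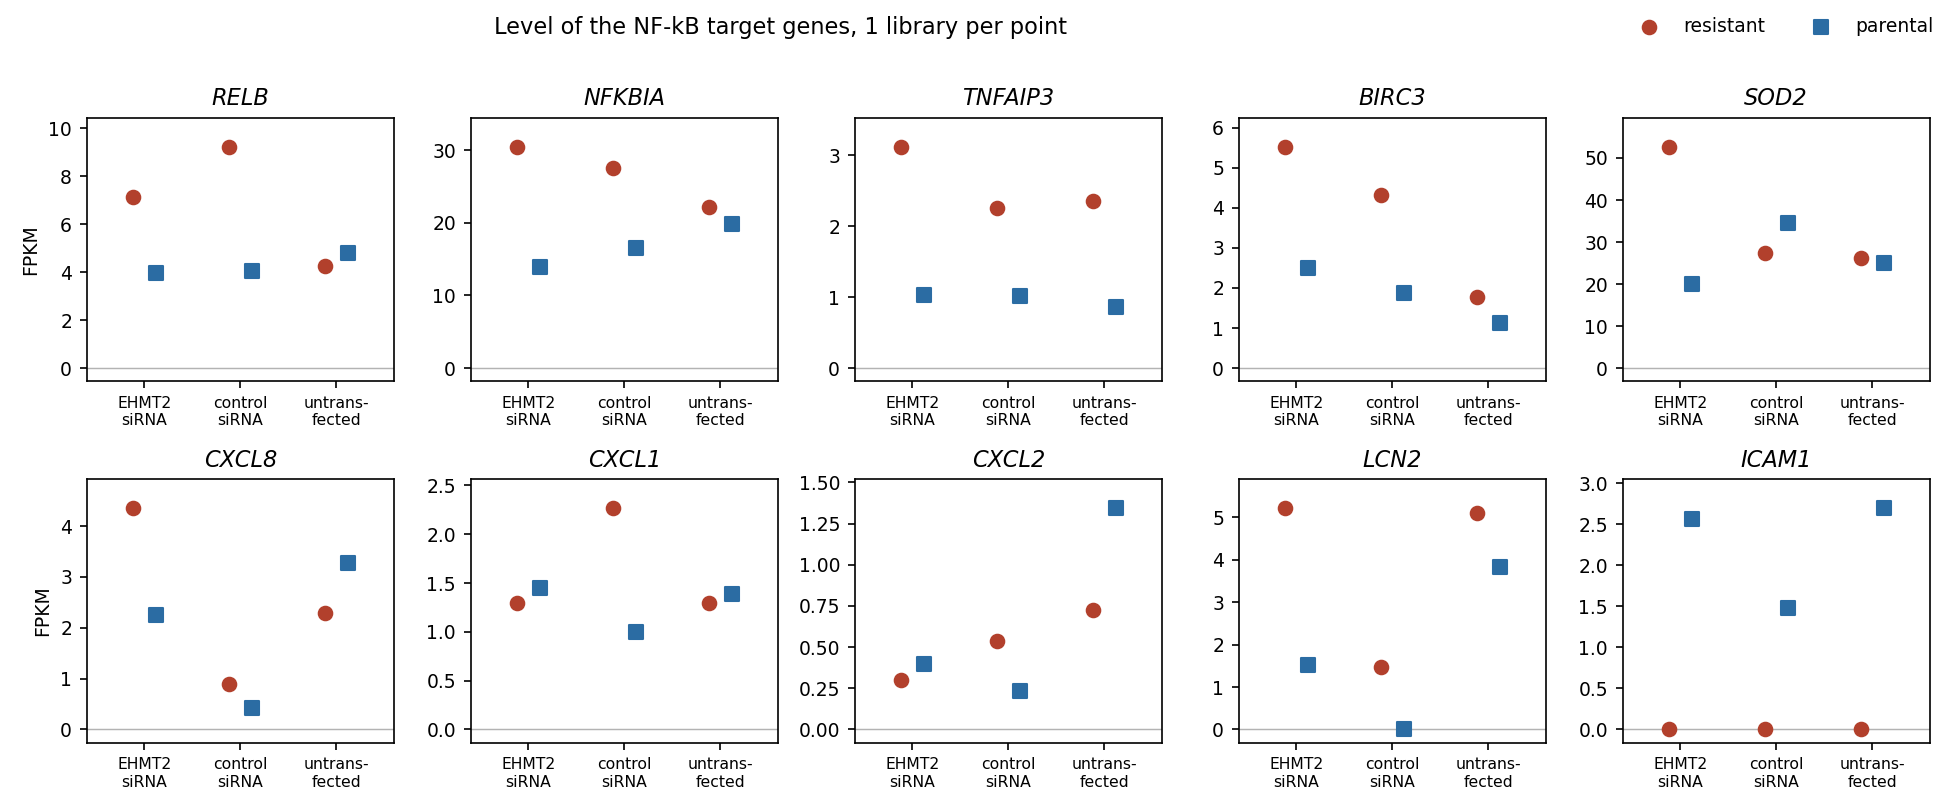
FPKM of each of the 10 members in the 6 libraries, 1 panel per gene with its own vertical axis from 0 and 1 point per library, with resistant cells left of parental cells within each treatment. TNFAIP3 and NFKBIA lie higher in all resistant libraries, ICAM1 is at 0 in them, and CXCL8 and LCN2 are lowest with control siRNA in both lines.

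Of the secreted members, CXCL8 and LCN2 were lowest with control siRNA in both lines. CXCL8 encodes interleukin-8, a chemokine that draws neutrophils. It (ENSG00000169429, chromosome 4, 73740506 to 73743716, plus strand) had 4.36 FPKM in resistant cells with EHMT2 siRNA, 0.902 with control siRNA and 2.30 untransfected, against 2.25, 0.417 and 3.27 FPKM in parental cells. The control siRNA library was the lowest in each line and stood below 1 FPKM in both. EHMT2 siRNA over control siRNA gave a log2 ratio of 1.49 in resistant cells and 1.2 in parental cells, and quotients of plain FPKM of 4.83 and 5.41 in the same order. Against the untransfected library instead, the EHMT2 siRNA library was higher in resistant cells and lower in parental cells. The line ratio was 0.72 with EHMT2 siRNA and -0.37 untransfected, so the lines changed places between those treatments.

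LCN2 encodes lipocalin-2, an iron-siderophore binding protein that epithelia release against bacteria. Its transcript (ENSG00000148346, chromosome 9, 128149071 to 128153455, plus strand) was at 5.22, 1.47 and 5.10 FPKM in resistant cells with EHMT2 siRNA, with control siRNA and untransfected, against 1.51, 0 and 3.82 FPKM in parental cells. As for CXCL8, the control siRNA library was lowest in each line, and in parental cells the gene was listed at 0 there, so no ratio is given against that library. In resistant cells the EHMT2 siRNA log2 ratio was 1.33. The line ratio was 1.31 with EHMT2 siRNA and 0.34 untransfected. Being lowest with control siRNA in both lines was shared by 13.4% of the 12310 genes and by LCN2 and CXCL8 among the members.

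CXCL1 and CXCL2, neutrophil chemokines that share the receptor CXCR2, were low throughout. CXCL1 (ENSG00000163739, chromosome 4, 73869393 to 73871242, plus strand) had 1.29, 2.27 and 1.29 FPKM in resistant cells with EHMT2 siRNA, with control siRNA and untransfected, against 1.45, 1.00 and 1.39 FPKM in parental cells. The resistant control siRNA library was the highest of the 6 and the parental one the lowest. The EHMT2 siRNA log2 ratio was accordingly -0.51 in resistant cells and 0.29 in parental cells, and the line ratio 0.71 with control siRNA, -0.10 with EHMT2 siRNA and -0.06 untransfected. The last 2 changed sign under a scaling each, the EHMT2 siRNA one to 0.05 with quantile normalisation and the untransfected one to 0.11 with rescaled sums.

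CXCL2 (ENSG00000081041, chromosome 4, 74097035 to 74099293, minus strand) had 0.298, 0.538 and 0.724 FPKM in resistant cells and 0.396, 0.236 and 1.34 FPKM in parental cells, in the same order of treatments. Only the parental untransfected library passed 1 FPKM, and the untransfected library was the highest in each line. CXCL1 and CXCL2 share 4.81% and 3.88% of their 50-base stretches with each other, and CXCL2 shares 8.99% with CXCL3, so reads could be split among these copies. CXCL8 shares none with the other 3.

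ICAM1, the surface adhesion molecule that binds leukocyte integrins, was seen in parental libraries only. It (ENSG00000090339, chromosome 19, 10270835 to 10286615, plus strand) was listed at 0 FPKM in resistant cells with EHMT2 siRNA, with control siRNA and untransfected, against 2.57, 1.48 and 2.70 FPKM in parental cells. No fold is given against a value listed at 0. The lowest values above 0 in the libraries were 0.172 to 0.264 FPKM, which sets the level the parental values can be read against. A listing at 0 in all resistant libraries with 1 FPKM or more in all parental ones was found for 4 of 10929 genes at that level in the parental cells, or 0.0366%, and the converse for 0 of 10745. In parental cells the log2 ratio of EHMT2 siRNA over control siRNA was 0.53, and that of control siRNA over untransfected cells -0.58. Of the exonic bases of ICAM1, 23.6% overlap antisense genes, and the sources used here do not give the strand setting of the counting.

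The neighbours of ICAM1 on chromosome 19 were present in both lines. MRPL4, which lies 10.8 kb away and encodes a mitochondrial ribosomal protein, had line log2 ratios of 0.04 with EHMT2 siRNA, 0.03 with control siRNA and -0.28 untransfected. ICAM5, 3.4 kb to the other side and a member of the same adhesion family, had 31.6, 11.98 and 8.91 FPKM in resistant cells with EHMT2 siRNA, with control siRNA and untransfected, against 40.02, 13.2 and 10.9 FPKM in parental cells. Its line ratios were -0.33, -0.13 and -0.27, while its EHMT2 siRNA ratios were 1.33 in resistant cells and 1.53 in parental cells. So ICAM5 was 2-fold higher with EHMT2 siRNA in both lines, while ICAM1 was not in parental cells and was listed at 0 in resistant cells.

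SOD2 encodes the manganese superoxide dismutase of mitochondria, a classical NF-kB target in the response to TNF. Its transcript (ENSG00000112096, chromosome 6, 159669057 to 159745186, minus strand) was at 52.7, 27.4 and 26.3 FPKM in resistant cells with EHMT2 siRNA, with control siRNA and untransfected, against 20.1, 34.4 and 24.9 FPKM in parental cells. The resistant EHMT2 siRNA library was the highest of the 6 and the parental EHMT2 siRNA library the lowest. EHMT2 siRNA over control siRNA gave a log2 ratio of 0.92 in resistant cells and -0.75 in parental cells. The line ratio was 1.35 with EHMT2 siRNA, -0.32 with control siRNA and 0.07 untransfected, and the last turned to -0.01 under quantile normalisation. A second entry with the symbol SOD2 was at 0 to 0.220 FPKM and was left out. Of the exonic bases of SOD2, 6.93% overlap that entry or WTAP on the other strand.

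**Figure D3:**
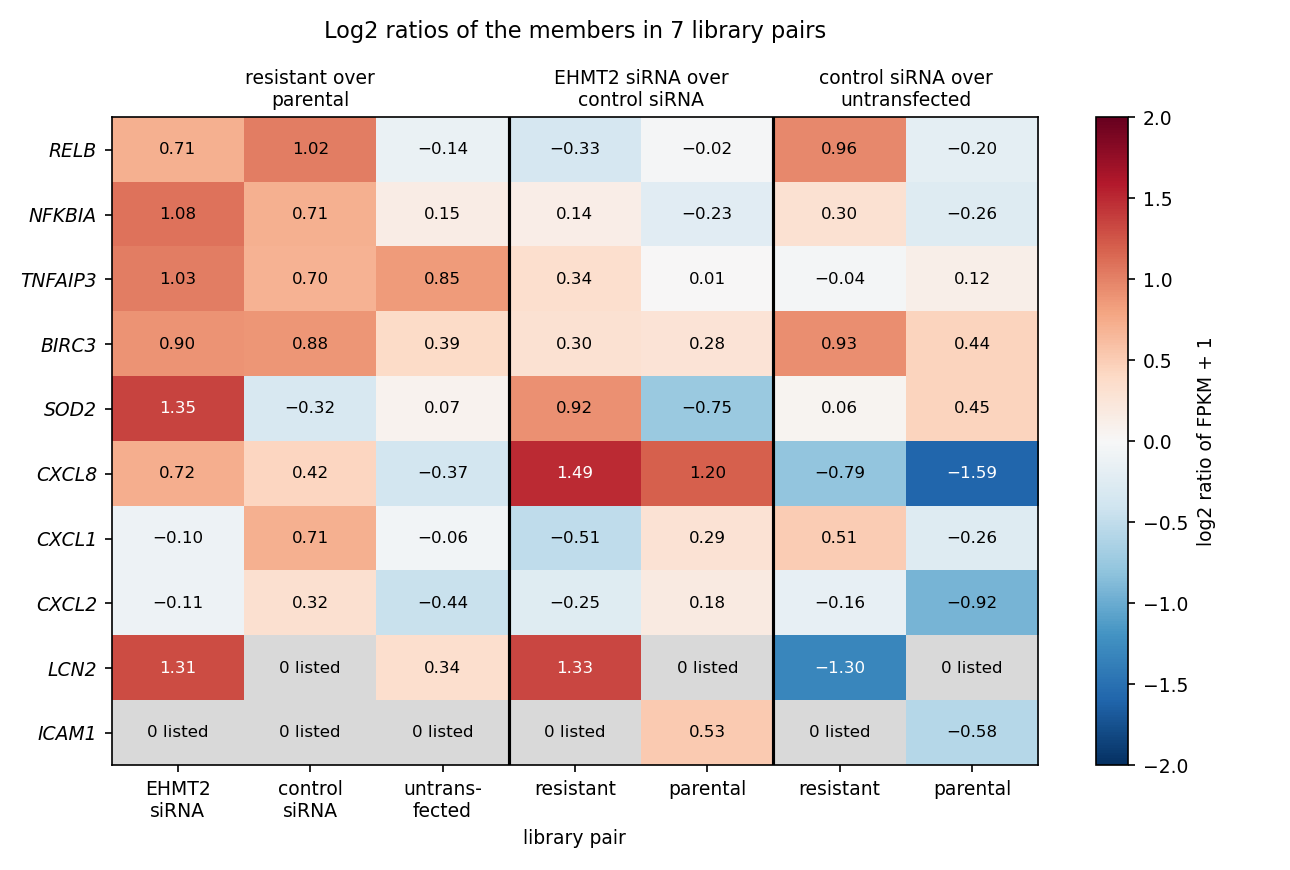
Log2 ratio of FPKM with 1 added for each member, in rows, in the 7 library pairs, in columns, from resistant over parental cells at the left to control siRNA over untransfected cells at the right. Pairs in which a library is listed at 0 are marked in place of a ratio, and SOD2 is 0.92 with EHMT2 siRNA in resistant cells and -0.75 in parental cells.

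The line difference was also counted pair by pair. Of 9 members measured with EHMT2 siRNA, 5 were 2-fold apart between resistant and parental cells, LCN2, TNFAIP3, NFKBIA and SOD2 higher and ICAM1 lower, where 3.09% of 11937 genes were 2-fold apart, 1.54% higher and 1.55% lower. With control siRNA it was 3 of 8, LCN2 and RELB higher and ICAM1 lower, against 2.56% of genes, 1.6% higher and 0.96% lower, and with a pseudocount of 0.1 both counts were 6. In untransfected cells ICAM1 alone of 10 members was 2-fold apart, against 7.4% of genes, of which 3.92% were lower. ICAM1 in all these pairs, and LCN2 with control siRNA, were counted against a listed 0. With a listed 0 entered as 0, the members' median log2 ratio was 0.90, 0.71 and 0.01 in these pairs, and that of all genes -0.05, -0.02 and 0.07. Because these contrasts chose the genes, the shares are printed for scale only. The ratios nearest to the 2-fold line were 1.02 for RELB with control siRNA and 1.03 for TNFAIP3 with EHMT2 siRNA just inside it.

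With EHMT2 siRNA over control siRNA, LCN2 and CXCL8 were the members counted as 2-fold higher in each line, which is 2 of 8 in resistant cells and 2 of 9 in parental cells, and none was 2-fold lower. For LCN2 in parental cells this count sets 1.51 FPKM against a listed 0. Over all genes 9.26% were 2-fold apart in resistant cells, 5.22% higher and 4.04% lower, and 11.0% in parental cells, 7.48% higher and 3.51% lower. The members' median log2 ratio was 0.32 in resistant cells and 0.28 in parental cells, against 0.06 and 0.09 over all genes. A higher level with EHMT2 siRNA in both lines was seen for LCN2, TNFAIP3, BIRC3 and CXCL8, of which TNFAIP3 did not keep it under all scalings, and for 46.1% of all genes. These pairs share their control siRNA libraries with the pairs described next.

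Control siRNA over untransfected cells was not itself among the contrasts that chose the members, but its control siRNA libraries also stand under the EHMT2 siRNA ratios that did. A member chosen for being low in those libraries is high in the one ratio and low in the other, so the values here are a description too and no p-value of a member is given. LCN2 was at 1.47 FPKM with control siRNA and 5.10 untransfected in resistant cells, and at a listed 0 and 3.82 FPKM in parental cells, the lower value with control siRNA in both lines. CXCL8 was likewise lower with control siRNA in both lines and BIRC3 higher in both.

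In resistant cells the log2 ratio of control siRNA over untransfected cells was -1.30 for LCN2, -0.79 for CXCL8, 0.93 for BIRC3 and 0.96 for RELB. In parental cells it was -1.59 for CXCL8, -0.92 for CXCL2, 0.44 for BIRC3 and -0.20 for RELB. LCN2 was 2-fold lower in resistant cells, 1 of 8 members measured, where 8.18% of all genes were 2-fold apart and 3.87% lower. In parental cells LCN2 and CXCL8 were counted as 2-fold lower, 2 of 10, where 3.03% of all genes were 2-fold apart and 2.08% lower. LCN2 was counted there from its listed 0 with control siRNA. An additive limma model of line and treatment across 11521 genes called 5 genes for this contrast, or 0.0434%. No result of that model is given for the members, for the reason above. Over all 11521 genes 813 had an unadjusted p below 0.05 in that model. Without either untransfected library this contrast rests on the other alone, so no count is given for it. Nothing is drawn from the members' counts, since their control siRNA values took part in their choice.

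The remaining genes of the pathway were taken from lists of subunits, inhibitors and kinases, of activating receptors and adaptors, and of other NF-kB targets, with 80 genes tested. In the fit to all 6 libraries none of them passed for EHMT2 siRNA, with 19 at an unadjusted p below 0.05, and none for line, with 6. Over all 11521 genes that fit also called 0 for either, with 3060 and 603 at an unadjusted p below 0.05. A fit to the 4 siRNA libraries alone called 4902 genes for EHMT2 siRNA, or 42.5% of those tested, 23.8% higher and 18.7% lower. It called 1032 for line, or 8.96%, with 4.49% higher and 4.47% lower. It has 1 residual degree of freedom among libraries, and the calls named below as passing are from it.

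Of 31 subunits, inhibitors and kinases, 10 passed as higher and 3 as lower with EHMT2 siRNA, against 23.8% and 18.7% of all genes. NFKBIZ, a nuclear co-activator of the I-kappa-B family, was at 3.47 FPKM in resistant cells with EHMT2 siRNA and 1.28 with control siRNA, and at 5.84 and 1.47 FPKM in parental cells, with log2 ratios of 0.97 and 1.47 and an adjusted limma p of 0.0032. In the 6-library fit its adjusted limma p was 0.061. The deubiquitinase gene CYLD, COMMD1, whose product promotes the breakdown of RELA, and the kinase genes TBK1 and IKBKE were also among the 10. NFKB1, the p105 and p50 subunit gene, was among the 3 lower, at 9.88 against 14.3 FPKM in resistant and 5.69 against 10.6 FPKM in parental cells. RELA, the main transactivating subunit, did not pass and had ratios of 0.19 and 0.35. For line, NFKB2, the partner of RELB, and TANK passed as higher in resistant cells and RNF31 as lower. All 3 had line ratios of the opposite sign in untransfected cells, which that fit does not use, -0.11 for NFKB2, -1.52 for TANK and 1.25 for RNF31.

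Among 19 receptors and adaptors tested, 2 passed as higher and 3 as lower with EHMT2 siRNA, against 23.8% and 18.7% of all genes. TNFRSF10B, a TRAIL death receptor, had log2 ratios of 0.61 in resistant cells and 0.99 in parental cells, and TNFRSF21, another death receptor, -1.47 and -1.29. TLR3, the receptor for double-stranded RNA, passed as higher, and the kinase gene IRAK1 as lower. For line, TNFRSF12A, the receptor of TWEAK, and TNFRSF1A, the main TNF receptor, passed as higher in resistant cells. TNFRSF1A had 75.6, 66.8 and 49.3 FPKM in resistant cells with EHMT2 siRNA, with control siRNA and untransfected, against 45.1, 50.6 and 41.1 FPKM in parental cells.

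**Figure D4:**
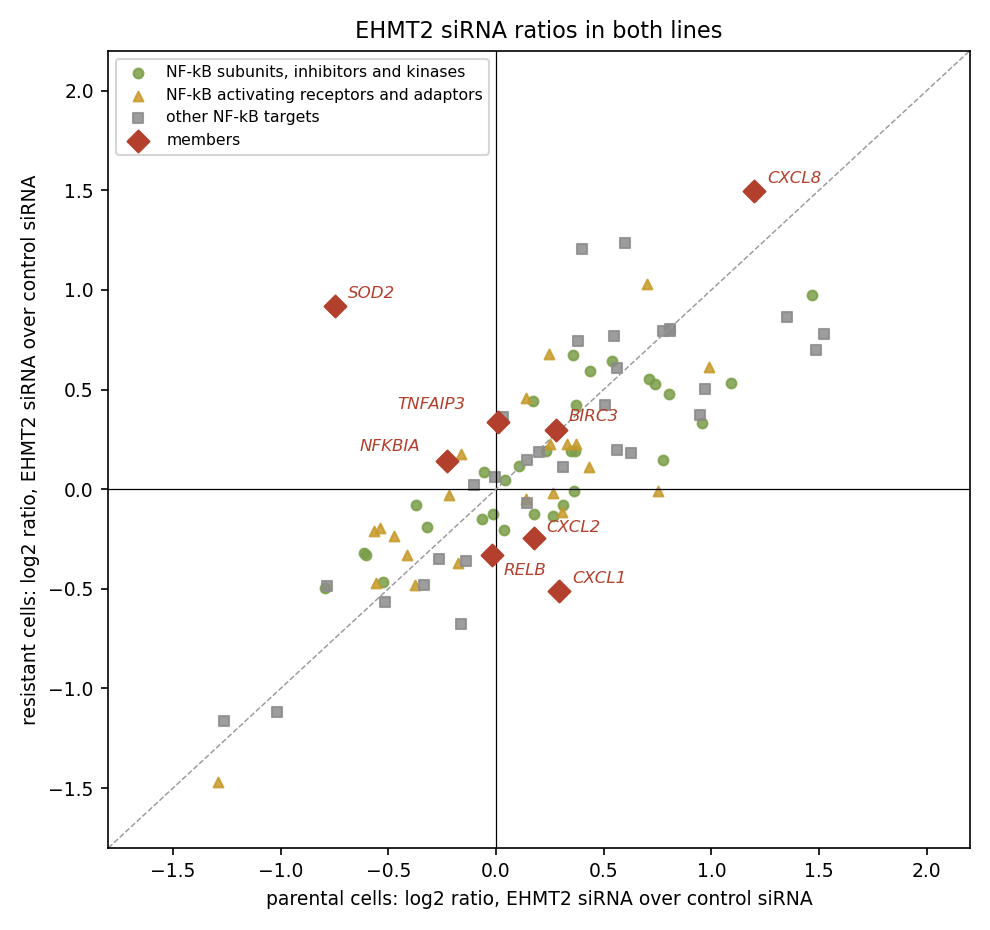
Log2 ratio of EHMT2 siRNA over control siRNA in resistant cells (vertical) and parental cells (horizontal) for 8 members and 84 other pathway genes that were above 0 in all 4 siRNA libraries, with the dashed line marking equal ratios. CXCL8 lies high in both lines, SOD2 lies at 0.92 in resistant cells and -0.75 in parental cells, and RIPK2, PLAU and TNFRSF21 are the unlabelled points low in both.

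Of 60 other targets, 27 were below 1 FPKM in every library, with IL6, TNF and CXCL5 listed at 0, and 30 could be tested. With EHMT2 siRNA 14 passed as higher and 5 as lower, against 23.8% and 18.7% of all genes. CFB, complement factor B, had 6.53 FPKM in resistant cells with EHMT2 siRNA and 0.507 with control siRNA, and 1.45 FPKM against a listed 0 in parental cells. GADD45B, a stress response gene, was at 32.6 against 17.5 FPKM in resistant and 20.5 against 7.43 FPKM in parental cells. PLAU, which encodes urokinase, was lower with EHMT2 siRNA, at 34.5 against 78.6 FPKM in resistant and 14.4 against 36.0 FPKM in parental cells, and RIPK2, the kinase downstream of NOD receptors, at 7.11 against 16.6 and 6.22 against 13.6 FPKM. Both had an adjusted limma p just above the threshold in the 6-library fit, 0.053 for PLAU and 0.055 for RIPK2, and just below it, at 0.047 and 0.048, when that fit kept only genes at 5 FPKM or more. Over all the settings tried the adjusted limma p ran from 0.00098 to 0.44 for PLAU and from 0.0017 to 0.48 for RIPK2. Of the exonic bases of PLAU 31.1% lie opposite C10orf55, and 45.5% of those of CFB are shared with neighbouring entries.

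PLAU also led the list by the smaller of its untransfected and control siRNA line ratios, which were 0.89 and 1.10, higher in resistant cells. Besides PLAU, the targets BCL2L1, CFB, GADD45B, IER3 and IFNGR2 passed as higher in resistant cells and none as lower, against 4.49% and 4.47% of all genes. Of these 6, IFNGR2, IER3 and GADD45B had untransfected ratios of the opposite sign, -0.67, -0.43 and -0.08. Of the 33 other targets at 1 FPKM or more in a library, 22 had a ratio above 0 with EHMT2 siRNA in both lines and 8 below 0 in both, against 46.1% and 35.5% of all genes.

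**Figure D5:**
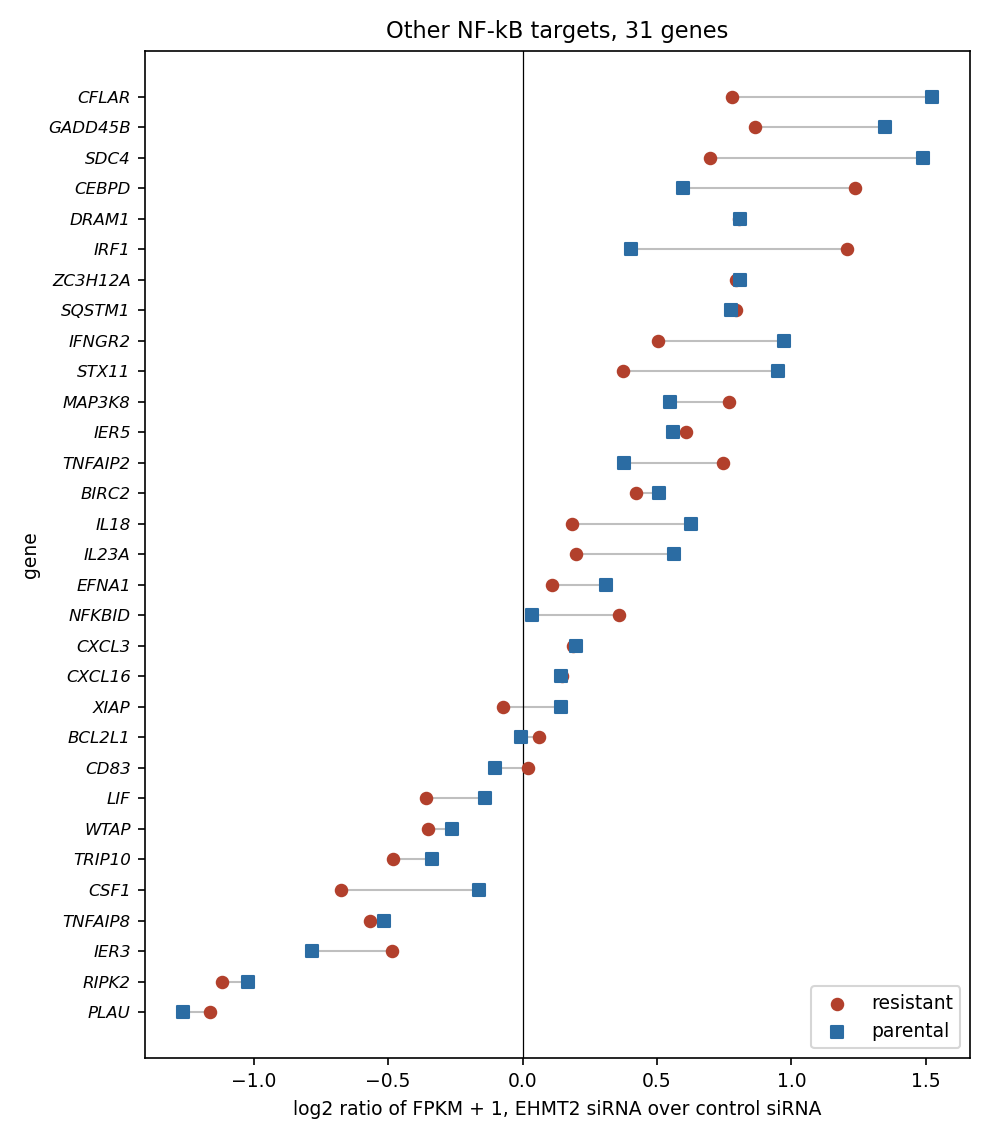
Log2 ratio of EHMT2 siRNA over control siRNA for 31 other NF-kB targets that were above 0 in all 4 siRNA libraries, 1 row per gene and 1 point per line. PLAU and RIPK2 lie below -1 in both lines, and GADD45B is at 0.86 in resistant cells and 1.35 in parental cells.

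The partners of the secreted members and of SOD2 were also read. The chemokine receptor gene CXCR2 was listed at 0 in all libraries and CXCR1 in all but the resistant untransfected one, where it had 0.194 FPKM. SLC22A17, which encodes a lipocalin-2 receptor, passed as higher with EHMT2 siRNA, with log2 ratios of 0.75 in resistant cells and 0.55 in parental cells. SDC1, a heparan sulfate proteoglycan gene, was the only other gene of this list that could be tested. It passed as lower with EHMT2 siRNA, with ratios of -0.78 in both lines and an adjusted limma p of 0.0044. In the fit to all libraries neither gene passed, with an adjusted limma p of 0.36 for SDC1 and 0.14 for SLC22A17. SDC1 also passed as lower in resistant cells, with line ratios of -0.65 in both siRNA pairs, but had 1.22 in untransfected cells. Of 8 enzymes of superoxide and peroxide removal that were tested beside SOD2, PRDX1 and SOD1 passed as higher with EHMT2 siRNA and GPX4 as lower. SOD1, the cytosolic superoxide dismutase, had ratios of 0.73 in resistant cells and 0.33 in parental cells, the same sign in both lines where SOD2 had opposite signs.

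Along the chemokine cluster on chromosome 4, the growth factor genes AREG and EREG stood apart from the chemokines in level. AREG had 49.1 and 116 FPKM in resistant cells with EHMT2 siRNA and control siRNA, and 51.7 and 153 FPKM in parental cells, and it passed as lower with EHMT2 siRNA, as did EREG. In untransfected cells AREG was at 27.8 FPKM in resistant and 346 FPKM in parental cells, a log2 ratio of -3.59, and EREG at a ratio of -2.51. CXCL8, CXCL2 and CXCL1, from the same cluster, had untransfected line ratios of -0.37, -0.44 and -0.06, and the last became 0.11 with rescaled sums. Of the other genes there, RASSF6 and MTHFD2L had 0.07 and 0.12, and CXCL3 and BTC -0.39 each. CXCL3 stayed at or below 1.04 FPKM.

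Flanking genes of other members were read in the same way. BIRC2, 7.8 kb from BIRC3 and encoding the related cIAP1, had line log2 ratios of 0.17 with EHMT2 siRNA, 0.26 with control siRNA and -0.09 untransfected, and EHMT2 siRNA ratios of 0.42 in resistant cells and 0.51 in parental cells. C9orf16, 6.8 kb from LCN2, had line ratios of 0.60, 0.41 and -0.40 in that order of treatments and EHMT2 siRNA ratios of -1.50 in resistant cells and -1.69 in parental cells, opposite in sign to LCN2 in resistant cells. CLASRP, 0.8 kb from RELB, had line ratios of -0.41, -0.61 and 0.40, each opposite in sign to that of RELB as deposited. PERP, 205.2 kb from TNFAIP3, and PSMA6, 84.0 kb from NFKBIA, were higher in resistant cells in all 3 pairs, as those members were, with ratios of 0.30, 0.38 and 0.28 for PERP and 0.14, 0.51 and 0.67 for PSMA6. This pattern was shared by 13.6% of the 12310 genes at 1 FPKM or more in any library. The flanking genes on the other side did not share it, IFNGR1 by TNFAIP3 with 0.18, 0.62 and -0.36, and RALGAPA1 by NFKBIA with -0.33, -0.25 and 0.09. ACAT2, 15.1 kb from SOD2, had line ratios of 0.21, 0.24 and 1.19 and EHMT2 siRNA ratios of 0.50 in resistant cells and 0.53 in parental cells.

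Likeness of pattern was measured as the root mean square distance of mean-centred log2 values over the 6 libraries, among 111 candidate genes. RELB and TNFAIP3 were each nearest to NFKBIA, at distances of 0.22 and 0.23, and NFKBIA to BCL2L1, at 0.21. BIRC3 was nearest to NFKB2 at 0.26, LCN2 to CXCL8 at 0.47, CXCL8 to GADD45B at 0.40 and SOD2 to TNFRSF1A at 0.28. CXCL1 was nearest to BCL3 at 0.17 and CXCL2 to BTC at 0.13, both with little spread of their own. ICAM1 had no near match, since NOD2, the nearest, was 0.76 away and the spread of ICAM1 itself was 0.86. The libraries share their line and treatment, so these distances describe 6 points and carry no test.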

How the data were processed

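Messenger RNA was sequenced from 6 HCT116 libraries, which the labels' protocols say were made with the TruSeq kit version v2 from total RNA. Tools named in the submitters' processing notes, in no stated order, are StringTie 2.1.1, HISAT2 2.2.1, cutadapt 4.9 and FastQC 0.12.1, with GRCh38 as the build. The sources used here do not give the annotation release or the strand setting. Each library has 1 table of FPKM deposited by the authors. Without read counts the depth is unknown, and no counting interval can be given. The series text speaks of replicates, but 1 library per group was analysed here. Among its labels, the untransfected resistant library spells the cells differently from the transfected ones, and the titles were followed.

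Where a symbol had several of the 19957 rows, the one with the highest mean was kept. Ratios are log2 of FPKM with 1 added, and calls needed 2-fold and 1 FPKM in either library. limma 3.58.1 in R 4.3.3 fitted line and treatment with a mean-variance trend to 11521 genes at 1 FPKM in at least 3 libraries, with Benjamini-Hochberg adjustment over all of them and the interaction as error. It was tested on simulated data. CXCL2 did not pass this filter. Members and lists were chosen with earlier results of these data known. Genes beside the members are named as the extremes of each list by the smaller of 2 ratios of the same sign, as flanking genes, or as nearest in pattern. CYLD, IKBKE, TLR3, RELA, TANK, RNF31, IER3 and IFNGR2 were named after their values were seen, as were the genes listed at 0. Sequences are from RefSeq and positions from GENCODE 29. Alternatives were a pseudocount of 0.1, other filters and folds, centring, rescaling, quantile normalisation, no trend, the 4 siRNA libraries alone and leaving out each library.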

Additional observations from a re-analysis of the deposited data

Results flagged for a closer look

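SOD2 moved in opposite directions with EHMT2 siRNA, with a log2 ratio of 0.92 in resistant cells and -0.75 in parental cells, a difference of 1.66. The same 4 libraries give the line ratios of 1.35 with EHMT2 siRNA and -0.32 with control siRNA, again 1.66 apart. CXCL1 had an EHMT2 siRNA ratio of -0.51 in resistant cells and 0.29 in parental cells, a difference of -0.81. The line ratio of CXCL8 was 0.72 with EHMT2 siRNA and -0.37 in untransfected cells, 1.09 apart. Each was picked out because both ratios were at least 1.2-fold and opposite in sign, and with 1 library per group none of these differences was tested.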

How the results depend on the processing

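Replicates could not be paired between groups, because each group held 1 library. The limma fits compared treatments within each line and lines within each treatment, with the interaction as error. Under the alternatives no ratio of a member past 2-fold changed sign. The fitted line change of some named genes did. For TANK it was -0.08 in the fit to all libraries and 0.63 in the fit to the 4 siRNA libraries alone. For CYLD, which did not pass for line in either fit, it was -0.12 and 0.03 in the same order. Of 372 alternative values of member ratios, 328 stayed on their side of the fold, 11 lost it and 33 gained it. These include the 1.5-fold and 4-fold settings, where only the cutoff moved, so a ratio could only gain or only lose it. Rescaling to the same sum moved the median log2 ratio of all genes by 0.24 in the untransfected line pair, by 0.18 for control siRNA over untransfected parental cells and by 0.12 for EHMT2 siRNA in parental cells.

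The counts of members 2-fold apart moved as follows, with line pairs named by their treatment. With a pseudocount of 0.1 they were 6 for EHMT2 siRNA, 6 for control siRNA, 2 for untransfected cells and 4 for control siRNA over untransfected resistant cells. With rescaled sums the last 2 were 2 and 4. At 5 FPKM or more they were 3 with EHMT2 siRNA, 1 with control siRNA and 0 untransfected, 1 and 0 for EHMT2 siRNA in resistant and parental cells, and 0 for control siRNA over untransfected parental cells. Median centring and quantile normalisation gave 2 for control siRNA over untransfected resistant cells, and quantile normalisation 1 for EHMT2 siRNA in parental cells. At 1.5-fold the line counts were 8, 7 and 2, and control siRNA over untransfected resistant cells 4. At 4-fold all were 0 but the 1 for control siRNA over untransfected parental cells, which was LCN2 with its listed 0.

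For other NF-kB genes, limma called 2 for EHMT2 siRNA at 5 FPKM or more, both lower, and 37 in the 4 siRNA libraries, where it called 11 for line. Leaving out each library gave 0 to 37 calls for EHMT2 siRNA and 0 to 11 for line. Calls appeared when either untransfected library was left out, 37 and 11 in both cases, the counts of the 4 siRNA libraries. The remaining untransfected library is fitted exactly by its own treatment term, so the spread in these fits comes from the 4 siRNA libraries. They are therefore no separate check on that fit. Control siRNA over untransfected cells then rests on the remaining untransfected library alone, so no count of members is given for it. The members' control siRNA libraries also entered the ratios that chose them. Values near or below 1 FPKM, as for CXCL1, CXCL2 and CXCL8 with control siRNA, are the least certain, since their read support is unknown.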
